A study of Mus musculus with 12 samples.

Results

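The genes described here are those whose response to fibroblast growth factor 2 (FGF2) depended on BGJ398, an inhibitor of the FGF receptor kinases. All cells were of the mouse line Ocy454, which carries an osteocyte label that is set against marker genes below. A gene was a member when its FGF2 change under BGJ398 differed from its FGF2 change in the vehicle DMSO, that is, when the interaction of the 2 treatments had a Benjamini-Hochberg adjusted p under 0.05 by the quasi-likelihood test of edgeR. Of 12542 genes tested, 532 were members (4.24%). The interaction was positive for 250 genes (1.99%), whose FGF2 change was higher under BGJ398 than in DMSO, and negative for 282 genes (2.25%), whose FGF2 change was lower under BGJ398. Without BGJ398+FGF2 replicate 2 the count was 956, it was 328 without DMSO replicate 2 and 337 without DMSO replicate 3, and it was 1038 without BGJ398 replicate 1, DMSO+FGF2 replicate 2 and BGJ398+FGF2 replicate 2 together.

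Polyadenylated RNA of 12 samples was sequenced in 4 groups of 3 libraries, named DMSO, DMSO+FGF2, BGJ398 and BGJ398+FGF2. All cells had differentiated for 5 days, received 200 nM BGJ398 or its vehicle as a pretreatment of 1 h, and were then kept for 48 h with or without 2 ng/mL FGF2 and lysed on differentiation day 7. All 4 groups are of a single cell line that grows at a permissive temperature and was moved to a warmer one to differentiate, and the labels call the libraries of a condition only a triplicate, so each p-value reflects only how these libraries vary, and that variation may be technical. Library depth was 18951710 to 27716975 reads, and levels are given as counts per 1e+06 library reads (CPM).

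FGF2 binds its receptor tyrosine kinases together with heparan sulfate and signals through the ERK and other kinase cascades, which in turn raise feedback inhibitors such as the Sprouty proteins and dual-specificity phosphatases. In cells of the osteoblast lineage, FGF signaling is known to affect proliferation, differentiation and the making of bone matrix. BGJ398 competes with ATP in the kinase domain of the FGF receptors.

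The upstream sequences of 6 members are shown first, because they hold a sequence element linked to a group of members described below, the chaperones of the endoplasmic reticulum (ER). The ER stress response element (ERSE) is the pair CCAAT and CCACG separated by 9 bases, and is known as a binding site of NF-Y and of factors of the unfolded protein response. All stretches are from RefSeq (build GRCm38.p6), run 5′ to 3′ toward the gene, lie upstream of the RefSeq start, and have both parts of the ERSE in capitals. Those of Calr and Creld2 hold the element on the opposite strand, and that of Hsp90b1 holds 1 on each strand. They lie at chr8:84847065-84847103 (minus strand) for Calr, chr15:88819510-88819548 (plus) for Creld2, chr14:118937817-118937855 (plus) for Dnajc3, chr10:86705523-86705666 (minus) for Hsp90b1, chr2:34772015-34772053 (plus) for Hspa5 and chr19:6046522-6046560 (plus) for Syvn1.
Calr: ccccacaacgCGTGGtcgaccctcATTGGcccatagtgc
Creld2: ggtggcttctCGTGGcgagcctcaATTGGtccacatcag
Dnajc3: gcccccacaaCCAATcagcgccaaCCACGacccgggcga
Hsp90b1: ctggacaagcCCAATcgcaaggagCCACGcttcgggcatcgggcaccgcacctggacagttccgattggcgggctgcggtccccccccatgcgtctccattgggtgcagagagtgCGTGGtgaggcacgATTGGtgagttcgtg
Hspa5: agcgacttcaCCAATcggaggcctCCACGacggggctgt
Syvn1: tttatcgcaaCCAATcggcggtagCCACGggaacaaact

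The interaction is a difference of 2 FGF2 changes, and its size came mainly from the DMSO side. Among the 250 positive members the median log2 interaction was 0.58, and the medians of the group levels were 64.8 CPM in DMSO, 43.6 in DMSO+FGF2, 67.2 in BGJ398 and 67.1 in BGJ398+FGF2. Among the 282 negative members the median log2 interaction was −0.59, and the medians were 41.6, 66.4, 41.9 and 41.7 CPM in the same order. These values chose the members and are a description. A 2-fold or larger interaction was fitted for 52 positive and 56 negative members.

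In 506 of the 532 members (95.1%) the 3 DMSO+FGF2 libraries lay outside the range of the other 9 libraries, against 19.1% of all tested genes, and the rule favors such genes. FGF2 was called for 13.4% of the tested genes in DMSO and 0% under BGJ398, where DESeq2 called 5 genes and limma-voom 0. An unadjusted edgeR p under 0.05 was found there for 325 of 12542 genes, a share below the 0.05 that evenly spread p-values give. The absence of calls does not show that no gene changed. BGJ398 without FGF2 changed 0.327% of the tested genes, 19 upward and 22 downward, and this count ranged from 9 to 104 when each library was left out in turn. Without BGJ398+FGF2 replicate 2 the genes called for BGJ398 alone numbered 104, and without DMSO replicate 2 or DMSO replicate 3 they numbered 9. FGF2 in DMSO and BGJ398 alone share the DMSO libraries with the interaction, so their values are set side by side below and no overlap is read from them.

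**Figure D1:**
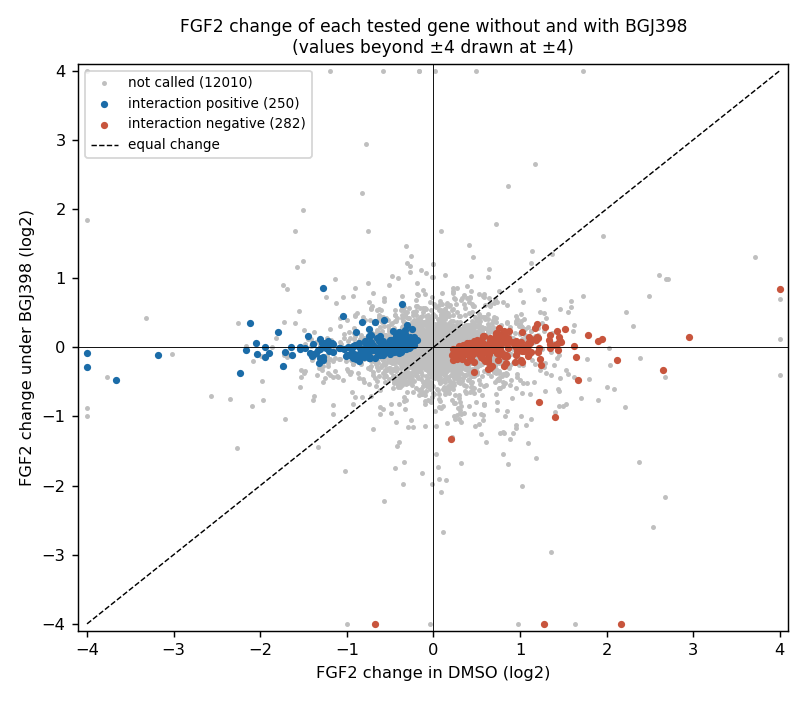
Log2 FGF2 change in DMSO (horizontal axis) and under BGJ398 (vertical axis) for each of the 12542 tested genes, with the 250 positive members in blue, the 282 negative members in red and equal change on the dashed line. Most members lie along the horizontal line at 0, away from the dashed line.

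The 15 most positive and the 15 most negative log2 interactions among protein-coding members with a mean of at least 5 CPM ranged in size from 1.3 to 3.19 and from 1.2 to 1.8. Their FGF2 changes under BGJ398 ranged from −0.47 to 0.09 on the positive side and from −0.19 to 0.26 on the negative side. Under BGJ398 the libraries with and without FGF2 did not overlap for Eln alone among these 30 genes. Hmcn1, on the positive side, lost its interaction call without any one of 7 libraries, with a highest edgeR adjusted p of 0.086. BGJ398 without FGF2 was called for 3 of the 30 by edgeR, Alpl (log2 change 0.65 ± 0.10 (SE), adjusted p = 0.0165), Fst (0.48 ± 0.09, adjusted p = 0.0428) and Hmga2 (−0.45 ± 0.07, adjusted p = 0.0241).

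**Figure D2:**
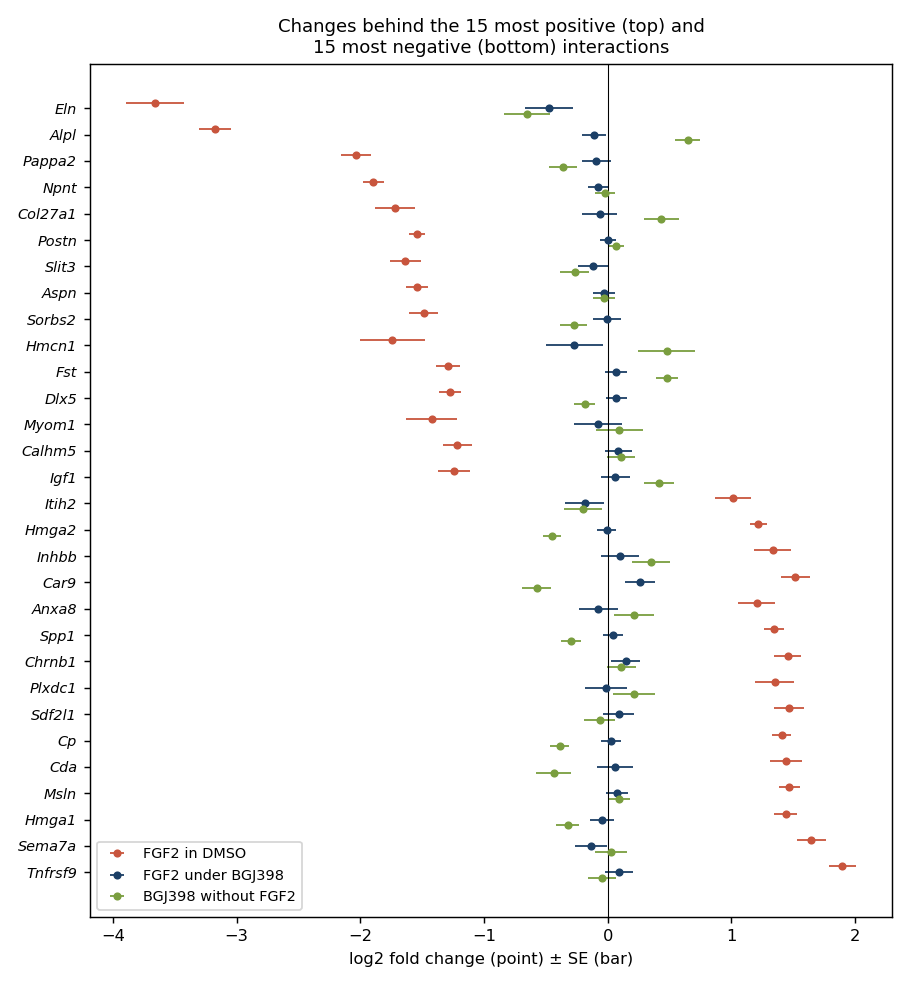
Log2 fold change ± SE for FGF2 in DMSO (red), FGF2 under BGJ398 (dark blue) and BGJ398 without FGF2 (green) in the 15 genes with the most positive and the 15 with the most negative interaction. The red points lie between −3.66 and 1.90, and the dark blue points between −0.47 and 0.26.

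Receptors of FGF were themselves among the members. Fgfr2 (ENSMUSG00000030849), a receptor of the osteoblast lineage, was at 120, 118 and 117 CPM in DMSO, 70.6, 62.5 and 69.5 in DMSO+FGF2, 141, 134 and 141 in BGJ398 and 135, 124 and 149 in BGJ398+FGF2. The DMSO+FGF2 libraries were the lowest, and both BGJ398 groups lay above DMSO and overlapped each other. Its log2 interaction was 0.79 ± 0.10 (SE, n = 3 per group, edgeR adjusted p = 0.000358).

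Fgfr1 (ENSMUSG00000031565), another receptor, went the other way, with 249, 244 and 262 CPM in DMSO, 306, 336 and 319 in DMSO+FGF2, 231, 237 and 241 in BGJ398 and 229, 216 and 253 in BGJ398+FGF2. Here the DMSO+FGF2 libraries were the highest of the 12. The log2 interaction was −0.37 ± 0.09 (edgeR adjusted p = 0.0268), and the call was lost without any one of DMSO replicate 1 or 2, BGJ398 replicate 2 or 3, DMSO+FGF2 replicate 2 or 3, or BGJ398+FGF2 replicate 1, with a highest adjusted p of 0.0872. Fgfr3 had an interaction of 0.21 ± 0.14 (adjusted p = 0.489). Of 14 tested receptors, coreceptors and adaptors, 2 were positive, Fgfr2 and the heparan sulfate proteoglycan Gpc4, and 1 negative, with a median of 0.17 against 0.003 for all tested genes. The call of Gpc4 was lost without DMSO replicate 2 or BGJ398 replicate 2, with a highest adjusted p of 0.0606. No ligand passed among the 4 tested, Fgf2, Fgf7, Fgf18 and Fgf21.

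The 5 FGF readouts Dusp6, Etv4, Etv5, Spry2 and Spry4 were not among the members. Dusp6, a phosphatase that inactivates ERK, was at 24.5, 18.7 and 17.6 CPM in DMSO, 25.8, 24.3 and 21.8 in DMSO+FGF2, 16.4, 13.5 and 14.7 in BGJ398 and 12.1, 14.7 and 14.7 in BGJ398+FGF2. The DMSO and DMSO+FGF2 libraries overlapped, and all 6 BGJ398 libraries were lower than these 6. Its log2 interaction was −0.36 ± 0.18 (edgeR adjusted p = 0.34). The log2 interactions of the ETS factors Etv4 and Etv5 were −0.52 ± 0.33 (adjusted p = 0.464) and −0.17 ± 0.13 (adjusted p = 0.575). Those of the feedback inhibitors Spry2 and Spry4 were −0.19 ± 0.18 (adjusted p = 0.665) and −0.10 ± 0.53 (adjusted p = 0.957), and the sign of the Spry4 value changed when some libraries were left out. Etv5 stood at 17.8, 14.8 and 15.4 CPM in DMSO and 9.63, 10.6 and 9.70 in BGJ398, and was called for BGJ398 without FGF2 (−0.68 ± 0.10, edgeR adjusted p = 0.00951), but it shares 30.3% of its 31-base sequences with another gene.

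Of 28 tested ERK feedback and early genes, 3 were positive (Egr2, Ccnd1, Myc) and 5 negative (Jun, Dusp4, Fosl1, Dusp1, Ier3). Jun, a subunit of AP-1, had a log2 interaction of −0.61 ± 0.10 (edgeR adjusted p = 0.00407). For Dusp4, another ERK phosphatase, the libraries were 3.79, 3.30 and 3.60 CPM in DMSO, 7.66, 7.97 and 7.04 in DMSO+FGF2, 2.46, 2.72 and 2.64 in BGJ398 and 2.58, 1.88 and 2.70 in BGJ398+FGF2. Its DMSO+FGF2 libraries were the highest and its BGJ398 libraries lay below DMSO, and its interaction was −1.21 ± 0.22 (adjusted p = 0.00647). Egr2, a zinc-finger early gene, had an interaction of 0.79 ± 0.17 (adjusted p = 0.0181).

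Osteoblast transcription factors were members in 1 direction. Of 15 tested, 6 were positive (Dlx5, Sp7, Mef2c, Dlx6, Irx5, Irx3) and 0 negative, with a median log2 interaction of 0.25 against 0.003 for all tested genes. The call of Irx5 was lost without DMSO replicate 3 or DMSO+FGF2 replicate 1, with a highest adjusted p of 0.057. Sp7 (ENSMUSG00000060284), osterix, which osteoblasts need to form, was at 23.1, 19.5 and 20.5 CPM in DMSO, 8.36, 8.23 and 10.2 in DMSO+FGF2, 26.2, 24.0 and 26.4 in BGJ398 and 23.3, 26.3 and 26.5 in BGJ398+FGF2. The DMSO+FGF2 libraries were the lowest by a wide gap, and the BGJ398 groups overlapped. Its interaction was 1.22 ± 0.14 (SE, edgeR adjusted p = 0.000219).

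The homeobox factor Dlx5 had a log2 interaction of 1.35 ± 0.12 (edgeR adjusted p = 3.19e-05), and its neighbor Dlx6 one of 0.86 ± 0.16 (adjusted p = 0.00706). Mef2c, a MADS-box factor, had one of 0.94 ± 0.13 (adjusted p = 0.00123). Runx2, the factor at the start of the osteoblast program, was not called, at 0.25 ± 0.13 (adjusted p = 0.361). In these bulk libraries fewer cells of a type and less RNA per cell cannot be told apart.

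Genes of mineralization were members in both directions, 3 positive (Alpl, Ibsp, Nt5e) and 5 negative (Spp1, Enpp1, Mgp, Ank, Enpp3) of 16 tested. Alpl (ENSMUSG00000028766), the alkaline phosphatase that removes pyrophosphate and frees phosphate, was at 12.4, 11.8 and 11.9 CPM in DMSO, 1.29, 1.58 and 1.09 in DMSO+FGF2, 17.7, 18.5 and 20.2 in BGJ398 and 18.1, 15.8 and 18.3 in BGJ398+FGF2. Both BGJ398 groups lay above the DMSO libraries, and the DMSO+FGF2 libraries lay far below them. The interaction was 3.07 ± 0.16 on the log2 scale (edgeR adjusted p = 5.51e-07), an 8.38-fold difference between the FGF2 responses.

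Ibsp, bone sialoprotein, was at 1.16, 0.799 and 1.06 CPM in DMSO and at 0, 0.0426 and 0 in DMSO+FGF2, so no fold is given. It was at 1.97, 1.91 and 1.27 CPM in BGJ398 and 1.54, 1.24 and 2.08 in BGJ398+FGF2, and its interaction was called positive (edgeR adjusted p = 0.001).

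Among the negative genes, Enpp1, which makes the mineral inhibitor pyrophosphate, was at 24.4, 21.2 and 25 CPM in DMSO, 45.5, 48.5 and 50.5 in DMSO+FGF2, 21.3, 22.3 and 19.8 in BGJ398 and 21.1, 19.5 and 22.8 in BGJ398+FGF2. Only DMSO+FGF2 stood apart, and the interaction was −1.03 ± 0.12 (edgeR adjusted p = 0.000242). Spp1, the mineral-binding phosphoprotein osteopontin, was at 402, 361 and 368 CPM in DMSO, 943, 1056 and 870 in DMSO+FGF2, 312, 299 and 309 in BGJ398 and 285, 355 and 309 in BGJ398+FGF2, with an interaction of −1.30 ± 0.12 (adjusted p = 3.19e-05); 14.3% of its 31-base sequences are shared with another gene. The transporter Ank, which moves pyrophosphate out of cells, and Mgp, an inhibitor of mineralization, were negative too, at −0.43 ± 0.11 (adjusted p = 0.038) and −0.61 ± 0.11 (adjusted p = 0.00454); these 2 are named for their role, after their values were seen.

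**Figure D3:**
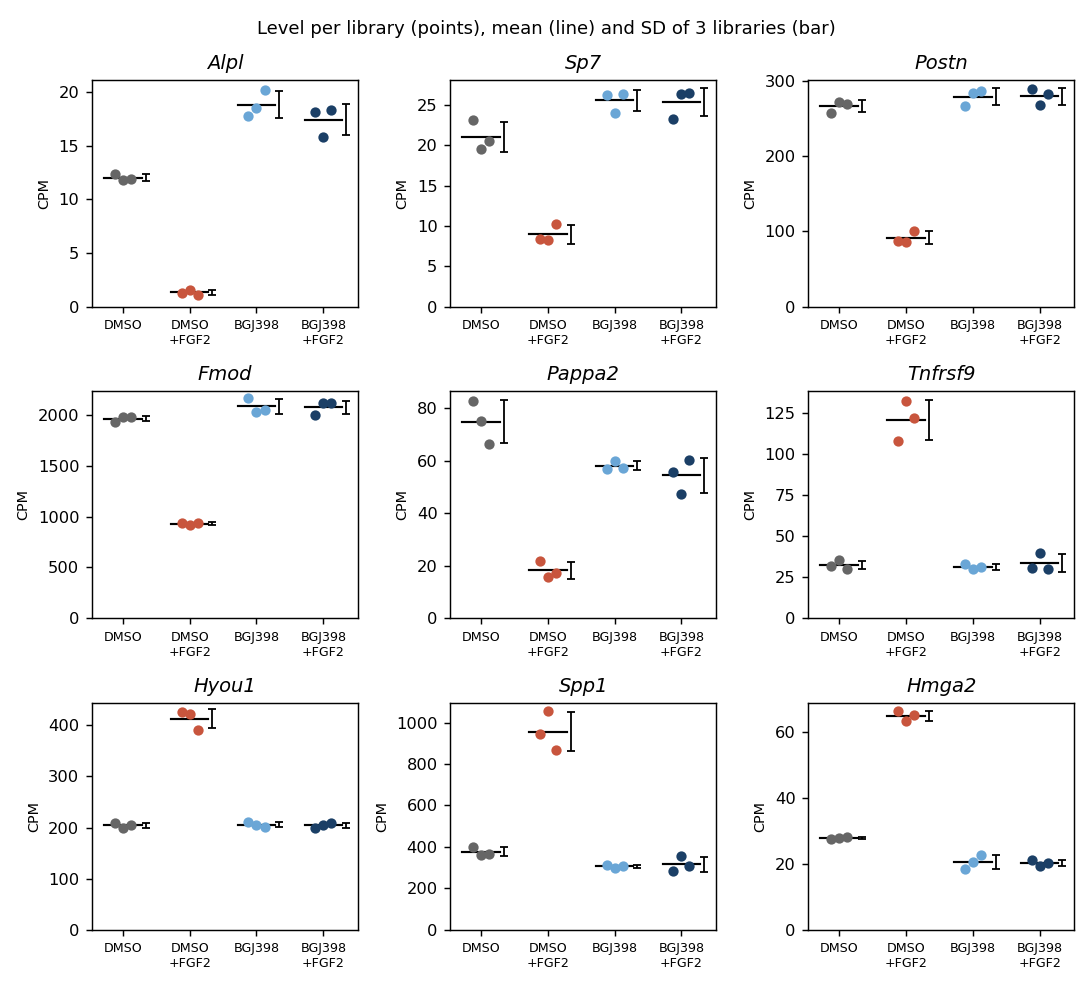
Level in CPM (vertical axes, from 0) of 9 members in each of the 12 libraries (points) by group, with the mean as a line and the SD of 3 libraries as a bar. In all 9 panels the 3 DMSO+FGF2 libraries stand apart from the other 9.

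Collagens were members in the positive direction alone. Of 17 tested fibrillar, fibril-associated, type VI and type VIII collagens 11 were positive and 0 negative, with a median log2 interaction of 0.53. Their summed level was 27730, 28593 and 28388 CPM in DMSO, 17930, 19698 and 17771 in DMSO+FGF2, 31290, 29373 and 27927 in BGJ398 and 27676, 27543 and 30648 in BGJ398+FGF2. The sums of the DMSO+FGF2 libraries were the lowest, and those of the other 3 groups overlapped.

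Col11a1, a minor fibrillar collagen that sets fibril width, had a log2 interaction of 1.28 ± 0.12 (edgeR adjusted p = 4.69e-05), Col27a1 one of 1.65 ± 0.22 (adjusted p = 0.000689), and Col3a1 one of 0.58 ± 0.09 (adjusted p = 0.00223). Col1a1, the main collagen of bone, was at 9111, 9829 and 9514 CPM in DMSO, 5514, 6737 and 5486 in DMSO+FGF2, 11136, 9893 and 9230 in BGJ398 and 9091, 9657 and 10836 in BGJ398+FGF2, with an interaction of 0.65 ± 0.13 (adjusted p = 0.0112). Of 24 tested enzymes and chaperones of collagen processing 5 were positive and 0 negative, with a median of −0.002. They included the prolyl hydroxylase subunit P4ha1 (0.44 ± 0.09, adjusted p = 0.013) and the collagen chaperone Fkbp10 (0.47 ± 0.08, adjusted p = 0.00525). Another of the 5, P4ha3, lost its call without any one of 5 libraries, with a highest adjusted p of 0.0643.

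Small leucine-rich proteoglycans, which bind collagen fibrils, were positive in 5 of 10 (Fmod, Aspn, Omd, Prelp, Ogn) and negative in 1 (Podn), with a median of 0.34. Fibromodulin, Fmod, was at 1934, 1977 and 1983 CPM in DMSO, 933, 912 and 941 in DMSO+FGF2, 2170, 2034 and 2051 in BGJ398 and 2000.2, 2113 and 2115 in BGJ398+FGF2. The DMSO+FGF2 libraries were far below the others with little spread, and the interaction was 1.07 ± 0.07 (SE, edgeR adjusted p = 1.12e-06). Asporin, Aspn, had an interaction of 1.51 ± 0.13 (adjusted p = 2.26e-05), and the osteoblast proteoglycan Omd one of 1.24 ± 0.14 (adjusted p = 0.000277).

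Of 19 matricellular and other glycoproteins 9 were positive and 3 negative (Ccn5, Tgfbi, Thbs2), with a median of 0.36. Among the 9, Ccn1 lost its call without any one of 4 libraries, with a highest edgeR adjusted p of 0.0608. Postn (ENSMUSG00000027750), periostin, was at 257, 272 and 269 CPM in DMSO, 86.7, 86.5 and 101 in DMSO+FGF2, 266, 284 and 287 in BGJ398 and 289, 267 and 282 in BGJ398+FGF2, an interaction of 1.55 ± 0.09 (edgeR adjusted p = 7.57e-07). Nephronectin, Npnt, a ligand of integrins, had an interaction of 1.82 ± 0.12 (adjusted p = 1.32e-06). Tenascin C, Tnc, was at 316, 290 and 286 CPM in DMSO, 113, 114 and 110 in DMSO+FGF2, 380, 412 and 377 in BGJ398 and 345, 315 and 409 in BGJ398+FGF2. For Tnc the libraries with BGJ398 alone lay above those of DMSO, and the interaction was 1.27 ± 0.12 (adjusted p = 3.19e-05).

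Of 15 elastic fiber genes 5 were positive (Eln, Fbln5, Mfap4, Fbn2, Ltbp1) and 0 negative, with a median of 0.16. The call of Fbn2 was lost without any one of 10 libraries, with a highest edgeR adjusted p of 0.0951. Elastin, Eln, was at 13.1, 13.1 and 16.8 CPM in DMSO, 0.976, 0.938 and 1.52 in DMSO+FGF2, 12.3, 7.76 and 7.4 in BGJ398 and 6.47, 6.24 and 7.06 in BGJ398+FGF2. The BGJ398+FGF2 libraries all lay below those of BGJ398, although the FGF2 change under BGJ398, −0.47 ± 0.19, was not called (edgeR adjusted p = 1). Its interaction was 3.19 ± 0.31 (adjusted p = 5.1e-05).

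Of 19 basement membrane genes 6 were positive, with a median of 0.26. The chains Col4a1 and Col4a2, which are transcribed from a shared promoter, had interactions of 0.68 ± 0.11 (edgeR adjusted p = 0.00247) and 0.75 ± 0.12 (adjusted p = 0.00258). Of 16 integrins 3 were positive and 1 negative, with a median of −0.033. The call of Itga8 was lost without any one of 9 libraries and that of Itga7 without any one of 8, with highest adjusted p-values of 0.103 and 0.0665. Itga1 and Itga11, the alpha chains of collagen receptors, were positive at 0.89 ± 0.13 (adjusted p = 0.00128) and 0.51 ± 0.08 (adjusted p = 0.00358). Of 21 matrix proteases and inhibitors 3 were positive, among them Adamts1 (0.57 ± 0.11, adjusted p = 0.00865), and Mmp19 was negative (−0.65 ± 0.08, adjusted p = 0.000341). Another of the 3, Adamts5, lost its call without DMSO replicate 2 or BGJ398+FGF2 replicate 1, with a highest adjusted p of 0.0594.

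**Figure D4:**
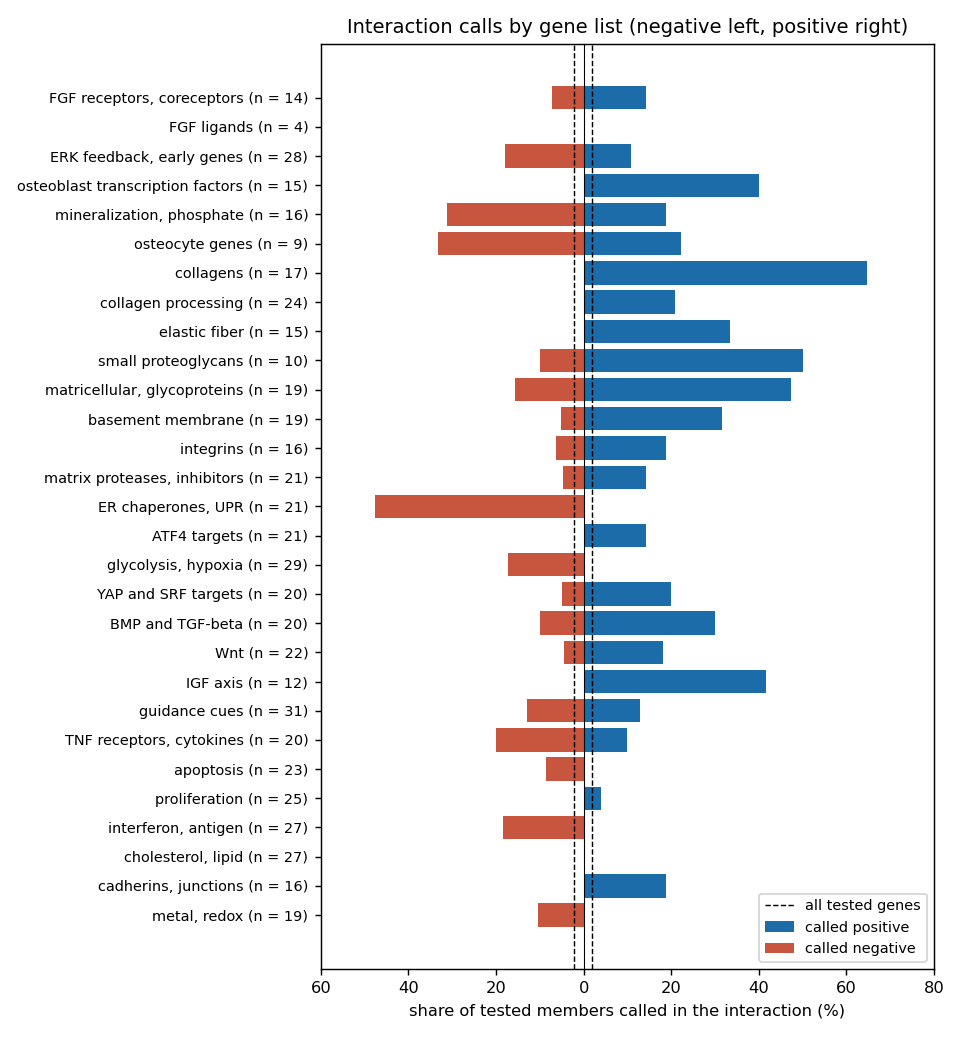
Share of the tested members of each gene list other than the cell type marker lists called positive (blue, right) or negative (red, left) in the interaction, in percent, with dashed lines at the 1.99% and 2.25% of all tested genes. Among the lists drawn, the longest blue bar is that of the collagens, 11 of 17, and the longest red bar that of the ER chaperones, 10 of 21.

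Among secreted signals, genes of the insulin-like growth factor axis were positive in 5 of 12 and negative in 0, with a median log2 interaction of 0.52. Of the 5, Igfbp2 lost its call without DMSO+FGF2 replicate 1 or 3, with a highest edgeR adjusted p of 0.0512. Pappa2 (ENSMUSG00000073530), a protease that frees these factors from their binding proteins, was at 82.9, 75.2 and 66.6 CPM in DMSO, 21.7, 15.6 and 17.3 in DMSO+FGF2, 57.0, 60.0 and 57.3 in BGJ398 and 55.7, 47.4 and 60.4 in BGJ398+FGF2. Its DMSO+FGF2 libraries were the lowest, both BGJ398 groups lay below DMSO, and the interaction was 1.95 ± 0.17 (edgeR adjusted p = 2.26e-05). The growth factor Igf1 had an interaction of 1.30 ± 0.18 (adjusted p = 0.000871).

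Igfbp5, a binding protein of the same axis, was at 83.3, 80.7 and 79.4 CPM in DMSO, 49.7, 51.1 and 56.0 in DMSO+FGF2, 130, 136 and 128 in BGJ398 and 133, 113 and 139 in BGJ398+FGF2. The 4 groups fell at 3 levels, with both BGJ398 groups the highest. The interaction was 0.60 ± 0.10 (edgeR adjusted p = 0.00432), and BGJ398 without FGF2 was called as well (0.69 ± 0.07, adjusted p = 0.0016).

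In the BMP and TGF-beta list 6 of 20 were positive and 2 negative (Inhbb, Tgfbr2), with a median of 0.22. Follistatin, Fst, an antagonist of activins, had an interaction of 1.36 ± 0.13 (edgeR adjusted p = 5.52e-05), the ligand Tgfb3 one of 0.73 ± 0.08 (adjusted p = 0.000171), and the BMP target Id3 one of 0.68 ± 0.12 (adjusted p = 0.00485). Inhbb, an activin subunit, was negative at −1.23 ± 0.21 (adjusted p = 0.0043).

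Of 22 Wnt genes 4 were positive and 1 negative (Dkk3), with a median of 0.12. Rspo3 and Rspo2, R-spondins that strengthen Wnt signaling, had interactions of 0.88 ± 0.14 (edgeR adjusted p = 0.0023) and 1.15 ± 0.19 (adjusted p = 0.00363). Sfrp2, a secreted Wnt modulator, was at 116, 115 and 115 CPM in DMSO, 75.1, 77.4 and 71.2 in DMSO+FGF2, 85.5, 80.1 and 78.0 in BGJ398 and 77.6, 92.9 and 88.2 in BGJ398+FGF2. Here DMSO alone was high and every other library lower, so that FGF2 and BGJ398 each went with a lower level when given alone; the interaction was 0.72 ± 0.09 (adjusted p = 0.00067) and BGJ398 without FGF2 was called at −0.51 ± 0.07 (adjusted p = 0.00508).

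Guidance cues and their receptors were split, 4 positive and 4 negative of 31, with a median of −0.073. Slit3, a secreted ligand of Robo receptors, was positive at 1.52 ± 0.17 (edgeR adjusted p = 0.000234). Sema7a, a membrane-anchored semaphorin, was negative at −1.78 ± 0.17 (adjusted p = 5.52e-05), as was Sema5a at −1.15 ± 0.18 (adjusted p = 0.00258).

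Of 20 TNF receptors and cytokine genes 2 were positive and 4 negative, with a median of −0.14. Tnfrsf9 (ENSMUSG00000028965), the costimulatory receptor CD137, was at 31.8, 35.3 and 30.0 CPM in DMSO, 108, 132 and 122 in DMSO+FGF2, 33.2, 29.9 and 30.9 in BGJ398 and 30.5, 39.9 and 30.1 in BGJ398+FGF2. The DMSO+FGF2 libraries lay above 100 CPM and the other 9 below 40 CPM, with an interaction of −1.80 ± 0.16 (edgeR adjusted p = 2.26e-05). The receptors Tnfrsf1b and Il1rl1 were negative at −0.87 ± 0.11 (adjusted p = 0.000482) and −0.83 ± 0.12 (adjusted p = 0.00128).

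In the list of ER chaperones and the unfolded protein response, 10 of 21 tested genes were negative and 0 positive, with a median log2 interaction of −0.42. The collagen chaperone Fkbp10 and the hydroxylase subunit P4ha1, which also act in the ER, were counted with collagen processing and were positive. Hyou1 (ENSMUSG00000032115), a chaperone of the ER lumen, was at 210, 200 and 204 CPM in DMSO, 426, 422 and 391 in DMSO+FGF2, 210, 205 and 201 in BGJ398 and 199, 206 and 208 in BGJ398+FGF2. The other 3 groups shared 1 level and DMSO+FGF2 lay far above it, with an interaction of −1.02 ± 0.07 (SE, edgeR adjusted p = 2.33e-06).

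Hspa5, the chaperone BiP, was at 778, 683 and 697 CPM in DMSO, 1255, 1428 and 1216 in DMSO+FGF2, 750, 729 and 714 in BGJ398 and 758, 823 and 716 in BGJ398+FGF2, with an interaction of −0.79 ± 0.10 (edgeR adjusted p = 0.000727). Sdf2l1, a cofactor in the ER, and Creld2, a secreted ER stress protein, had interactions of −1.37 ± 0.18 (adjusted p = 0.000558) and −1.19 ± 0.14 (adjusted p = 0.00036). The values were −0.73 ± 0.07 for the disulfide isomerase Pdia4 (adjusted p = 4.65e-05), −1.0 ± 0.14 for the secreted factor Manf (adjusted p = 0.00116) and −0.67 ± 0.09 for Hsp90b1, the chaperone GRP94 (adjusted p = 0.001).

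Calreticulin, Calr, had an interaction of −0.64 ± 0.11 (edgeR adjusted p = 0.00348), the cochaperone Dnajc3 one of −0.50 ± 0.09 (adjusted p = 0.00475), and the ubiquitin ligase Syvn1 one of −0.37 ± 0.08 (adjusted p = 0.0243). The call of Syvn1 was lost without any one of DMSO replicate 2, BGJ398 replicate 3, DMSO+FGF2 replicate 2 or 3, or BGJ398+FGF2 replicate 1, with a highest adjusted p of 0.0767. Canx, the membrane-bound relative of calreticulin, was not called at −0.012 ± 0.071 (adjusted p = 0.961), nor was the regulator Xbp1 at −0.22 ± 0.12 (adjusted p = 0.371). The ATF4 list, the amino acid branch of the stress response, had 3 positive (Asns, Slc7a5, Mthfd2) and 0 negative of 21, with a median of 0.22. Asparagine synthetase, Asns, was at 165, 169 and 176 CPM in DMSO, 123, 121 and 117 in DMSO+FGF2, 166, 166 and 160 in BGJ398 and 176, 196 and 159 in BGJ398+FGF2, with an interaction of 0.60 ± 0.09 (adjusted p = 0.00223).

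The ERSE sequences printed above belong to 6 of the 8 called genes of the ER chaperone list that have an entry in the promoter table. Pdia4 and Sdf2l1 had no match in the 250 upstream bases, and Hyou1 and Manf were not in the table. Of 10 genes of this list tested and not called with an entry, 2 held the element (Canx and Pdia6). The split into called and not called genes was made after the values were seen. Among all 12242 promoters of 9560 tested genes 15 held an ERSE (0.12%), among the 293 of negative members 6 (2.05%), which are the 6 printed, and among the 248 of positive members 0 (0%).

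The other 8 elements were searched in the same 250 bases on both strands, with any overlap allowed, and are given as the share of promoters of positive members, negative members and all tested genes. AP-1 (TGANTCA) was held by 4.44%, 9.90% and 4.36%, and the SRF element by 3.63%, 1.02% and 1.18%. The ATF4-CEBP element (TGATGNAAT) was held by 1.21%, 0% and 0.36%, and the TEAD element (ACATTCC) by 5.24%, 4.44% and 2.48%. The ETS element (CCGGAAG) was held by 1.21%, 4.44% and 13.5%, and the cyclic AMP element (TGACGTCA) by 1.61%, 1.37% and 2.56%. The RUNX element (TGTGGTT) was held by 2.42%, 3.75% and 3.06%, and the hypoxia element, ACGTG or GCGTG, by 43.9%, 49.5% and 55.7%. The hypoxia letters can overlap the CCACG part of an ERSE on the other strand. A match describes letters only.

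Of 29 tested genes of glycolysis and hypoxia 5 were negative (Car9, Ndrg1, Adm, Ero1l, Gpi1) and 0 positive, with a median log2 interaction of −0.35. Car9 (ENSMUSG00000028463), a carbonic anhydrase of hypoxic cells, was at 227, 241 and 198 CPM in DMSO, 593, 662 and 650 in DMSO+FGF2, 178, 139 and 130 in BGJ398 and 154, 203 and 179 in BGJ398+FGF2. Its interaction was −1.26 ± 0.17 (edgeR adjusted p = 0.00085). Ndrg1, a hypoxia-induced gene, had one of −0.65 ± 0.13 (adjusted p = 0.00972), and Ero1l, the oxidase of ER disulfide formation, one of −0.51 ± 0.10 (adjusted p = 0.013).

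The median FGF2 change of these 29 genes was 0.48 in DMSO and 0.14 under BGJ398, with 27 of 29 above 0 in DMSO and 24 of 29 under BGJ398, where the median of all tested genes was 0. Single libraries moved the second value. It was 0.033 without BGJ398+FGF2 replicate 2, 0.058 without BGJ398 replicate 3 and 0.24 without BGJ398 replicate 1. Their summed level was 15868, 13646 and 12776 CPM in BGJ398 and 14364, 17549 and 14296 in BGJ398+FGF2, so the groups overlapped, against 15933, 17374 and 15682 in DMSO and 21805, 25393 and 24188 in DMSO+FGF2. This list was followed up after the values were seen.

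**Figure D5:**
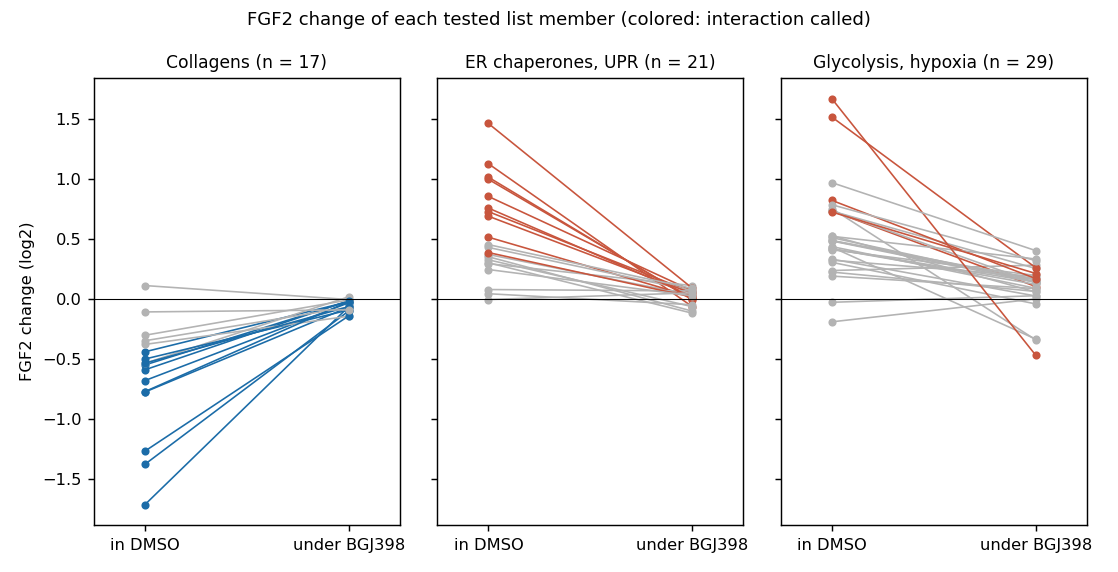
Log2 FGF2 change in DMSO and under BGJ398 (vertical axis) for each tested gene of the collagen, ER chaperone and glycolysis lists, with 1 line per gene, colored where the interaction was called. The colored lines are those of 11 of 17 collagens, which run upward, and of 10 of 21 ER genes and 5 of 29 glycolysis genes, which run downward.

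Several members stood outside the bone and matrix lists. Cp (ENSMUSG00000003617), the copper ferroxidase ceruloplasmin, was at 57.2, 54.9 and 49.8 CPM in DMSO, 144, 137 and 148 in DMSO+FGF2, 39.1, 40.2 and 44.2 in BGJ398 and 45.3, 37.5 and 42.8 in BGJ398+FGF2. The DMSO+FGF2 libraries were the highest and the BGJ398 libraries lay below DMSO, and the interaction was −1.38 ± 0.11 (edgeR adjusted p = 1.41e-05). Hmga2 (ENSMUSG00000056758), a chromatin protein of undifferentiated cells, was at 27.7, 28 and 28.1 CPM in DMSO, 66.4, 63.2 and 65.1 in DMSO+FGF2, 18.3, 20.5 and 22.6 in BGJ398 and 21.3, 19.5 and 20.3 in BGJ398+FGF2, with an interaction of −1.22 ± 0.10 (adjusted p = 2.26e-05).

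Its relative Hmga1 had an interaction of −1.48 ± 0.13 (edgeR adjusted p = 3.19e-05) but shares 62.1% of its 31-base sequences with another gene and is uncertain. Msln, the surface protein mesothelin, had one of −1.39 ± 0.12 (adjusted p = 2.92e-05). Among interferon and antigen genes 5 of 27 were negative and 0 positive, with a median of −0.37, including the factor Irf1 (−0.62 ± 0.10, adjusted p = 0.0023) and the nucleic acid sensor Zbp1 (−1.61 ± 0.27, adjusted p = 0.00389). Another of the 5, Gbp2, lost its call without any one of 9 libraries, with a highest adjusted p of 0.0757. Of 16 cadherins and junction genes 3 were positive and 0 negative, with a median of 0.054, among them Cdh2 (0.44 ± 0.09, adjusted p = 0.0124) and Cdh11, osteoblast cadherin (0.41 ± 0.09, adjusted p = 0.0164).

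Of 20 targets of YAP and SRF 4 were positive and 1 negative (Axl), with a median of 0.088. Among the 4 was Ccn1, whose call was lost without any one of 4 libraries. The smooth muscle actin Acta2 was at 630, 628 and 614 CPM in DMSO, 419, 425 and 423 in DMSO+FGF2, 850, 706 and 745 in BGJ398 and 698, 895 and 747 in BGJ398+FGF2. The DMSO+FGF2 libraries were the lowest and all BGJ398 libraries lay above those of DMSO, with an interaction of 0.59 ± 0.12 (edgeR adjusted p = 0.0126). Lists near the background of 4.24% were proliferation, with 1 of 25 (Ccna2, whose call was lost without any one of 7 libraries, with a highest adjusted p of 0.0853), and cholesterol, with 0 of 27; apoptosis had 2 of 23 (Casp12 and Pmaip1), of which Pmaip1 was lost without any one of 9 libraries, with a highest adjusted p of 0.116.

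Genes that FGF2 changed in DMSO could be followed in the BGJ398 libraries, which entered their choice only through the shared estimate of spread. The 950 genes higher with FGF2 in DMSO had a median log2 change of 0.39 there and 0.023 under BGJ398, with 61.2% above 0 against 50.2% of all tested genes. The 730 lower genes had medians of −0.38 and −0.014, with 42.3% above 0. For the 88 genes at least 2-fold lower in DMSO the medians were −1.33 and −0.084, with 28.4% above 0, and for the 88 at least 2-fold higher they were 1.35 and 0.058, with 58.0% above 0. Single libraries moved the medians under BGJ398 of all higher and all lower genes. Without BGJ398+FGF2 replicate 2 they were −0.00762 for the higher and 0.015 for the lower genes. For the higher genes the median was 0.0034 without BGJ398 replicate 3, 0.013 without BGJ398 replicate 2, 0.048 without BGJ398 replicate 1 and 0.039 without BGJ398+FGF2 replicate 1. For the lower genes it was −0.040 without BGJ398+FGF2 replicate 3, −0.022 without DMSO replicate 3 and −0.0083 without BGJ398 replicate 3. The 2-fold medians were not recomputed without each library.

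Some genes changed with FGF2 in DMSO and had an unadjusted interaction p above 0.05. Among those with a mean of at least 5 CPM, the largest increases were those of Hilpda, Syt8, Slc4a4, Slc22a23 and Egln1, and the largest decreases those of Rasl11a, Pif1, Ankle1, Pus7l and Phactr2. Egln1, the prolyl hydroxylase that marks hypoxia-inducible factors for decay, was at 287, 290 and 251 CPM in DMSO, 354, 434 and 430 in DMSO+FGF2, 245, 210 and 182 in BGJ398 and 243, 294 and 231 in BGJ398+FGF2. Its FGF2 change was 0.56 ± 0.12 in DMSO (edgeR adjusted p = 0.00606) and 0.27 ± 0.12 under BGJ398 (adjusted p = 1), and the interaction of −0.29 ± 0.17 was not called (adjusted p = 0.418). Just inside the threshold of the interaction lay Mcub (−0.63), Ccnyl1 (−0.35) and Eif2s2 (0.33), with adjusted p-values of 0.0493 to 0.0497, and just outside it Fosl2 (−0.38), Gdpd5 (−0.51) and Ahr (0.47), each at 0.0504. The 3 calls just inside were each lost without any one of 10 or 11 of the 12 libraries.

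The osteocyte label of the line was checked against its markers. Of 8 osteoblast markers all were tested, with summed levels of 19660 to 20670 CPM in DMSO, 12320 to 13970 in DMSO+FGF2, 20580 to 23050 in BGJ398 and 20580 to 22580 in BGJ398+FGF2. This sum was mainly Col1a1, Col1a2 and Sparc, with 2334037, 1980796 and 679388 reads over the 12 libraries, and the next gene, Runx2, had 30533. Of the osteocyte markers 2 of 6 were tested, and Sost and Mepe had 0 reads in all 12 libraries, which allows up to 0.109 to 0.159 CPM per library by counting error. The 6 osteocyte markers summed to 26.0 to 29.7 CPM in DMSO, 38.6 to 39.2 in DMSO+FGF2, 28.4 to 29.2 in BGJ398 and 26.3 to 32.7 in BGJ398+FGF2. Over the 12 libraries Pdpn held 8195 reads, Phex 116, Dmp1 26 and Fgf23 6, so this sum was nearly all Pdpn. Apart from Pdpn the osteocyte markers had 0 or few reads, so these 6 markers do not bear out the osteocyte label. Pdpn was called negative (−0.49 ± 0.11, edgeR adjusted p = 0.025), a call lost without any one of 7 libraries, with a highest adjusted p of 0.0707. A broader osteocyte list was split, with 2 positive (Irx5, Cd44) and 3 negative (Pdpn, Capg, Ackr3) of 9 tested (55.6% called, against 4.24% of all tested genes). Its median log2 interaction was 0.14. The calls of Cd44 and Capg were each lost without any one of 9 libraries, with highest edgeR adjusted p-values of 0.0966 and 0.0974. The chondrocyte markers summed to 20.7 to 23.1 CPM in DMSO, 27.1 to 27.99 in DMSO+FGF2, 21.97 to 23.7 in BGJ398 and 20.9 to 26.4 in BGJ398+FGF2. Of their 4 tested members the matrix protein Matn3 was positive (2.02 ± 0.21, adjusted p = 8.2e-05) and the transcription factor Sox9 negative (−0.72 ± 0.16, adjusted p = 0.024), the latter lost without any one of 4 libraries, with a highest adjusted p of 0.0707. Summed endothelial markers stayed at or below 0.356 CPM and muscle markers below 5 CPM, with Myod1 and Myog at 0 reads. The macrophage list, with Adgre1 at 0 reads, summed to 2.88 to 3.25 CPM in DMSO, 5.71 to 7.18 in DMSO+FGF2, 3.29 to 4.09 in BGJ398 and 3.64 to 5.34 in BGJ398+FGF2, and of its 3 tested members the lysosomal Cd68 had an interaction of −1.83 ± 0.32 (edgeR adjusted p = 0.00478), while Csf1r and Lyz2 were at 1.68 ± 1.03 (adjusted p = 0.455) and 1.45 ± 0.53 (adjusted p = 0.163). Adipocyte markers summed to 18.4 to 28.3 CPM over the 12 libraries with Adipoq and Lpl at 0, and tendon markers to 56.6 to 71.9 CPM with Tnmd at 0. The adipocyte sum was mainly Cebpa, with 5924 reads over the 12 libraries against 129 for Fabp4. The part of these levels in the interaction was not tested.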

How the data were processed

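The submitters' processing notes name Salmon and build GRCm39. The sources used here state no Salmon version and no strand setting, so an antisense or overlapping gene cannot be told from its partner. The files deposited by the authors hold, per the file headers, expected counts, TPM and effective lengths of 116178 transcripts; the authors' expected counts are unscaled, and their TPM are length-corrected shares of a fixed total. Gene-level sums of the expected counts, rounded to whole numbers, used the identifiers of GENCODE M21 (build GRCm38; names only, hence no gene coordinates), which matched 114656 transcripts of 35214 genes. The other 1522 transcripts, with 0.499% to 0.641% of reads, were left out. TPM and effective lengths entered 1 alternative.

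edgeR 4.0.16 (R 4.3.3) with filterByExpr, TMM scaling and the quasi-likelihood test was fitted to 4 group means over 12 libraries, with 8 residual degrees of freedom; p-values are 2-sided with Benjamini-Hochberg adjustment over all 12542 tested genes. SE is the absolute log2 change divided by the square root of F. CPM of single genes are counts over the TMM-scaled library size. CPM of summed lists and of the limits for 0 reads are counts over the unscaled library size. No 2 libraries of a group were as alike as counting noise allows. Replicate numbers were not used as pairs in the main fit, because the correlation of deviations was above 0.1 for only some same-numbered pairs. It was 0.239 for DMSO+FGF2 and BGJ398+FGF2 replicates 2, the highest of all pairs across groups. For BGJ398 and DMSO+FGF2 replicates 2 it was −0.146. Whether the numbers mark cultures treated together could not be told.

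Genes named are the 15 most positive and 15 most negative interactions (protein-coding, mean at least 5 CPM), and up to 4 called genes per list with the smallest p. Added to these are the members not called in DMSO, and genes called in DMSO with an unadjusted edgeR interaction p above 0.05. The rest are genes next to the threshold, 13 fixed genes, and the called ER chaperones. Other counted members of a list are not all named in the text and were not recomputed without each library (Ank and Mgp included). 1 result of the basement membrane list is not reported here. The members and lists were chosen with earlier results of these data known. Alternatives were DESeq2 1.42.0, limma-voom (limma 3.58.1), glmTreat against 1.2-fold, other scalings and filters, length-scaled TPM, the replicate block and leaving out libraries. The code of the test was also run on simulated counts with the change placed in BGJ398+FGF2 alone. The members differed mainly in DMSO+FGF2, so no support is drawn from that run. Promoters (upstream 250 bases) are from RefSeq; intervals of 0 reads (3 reads) cover counting error only.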

Additional observations from a re-analysis of the deposited data

Results flagged for a closer look

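The FGF2 change differed between BGJ398 and DMSO for 532 genes by the test of the difference itself, edgeR's interaction term. Of these, 9 genes were called in the interaction and not for FGF2 in DMSO, which was called for 13.4% of all tested genes. The FGF2 change in DMSO is a term of the interaction, so this count is not read as a result and the genes are only described. For Cenpp (log2 interaction 0.62), a centromere protein, the libraries were 8.65, 9.19 and 8.80 CPM in DMSO, 6.95, 7.29 and 7.42 in DMSO+FGF2, 8.38, 7.25 and 7.35 in BGJ398 and 9.73, 9.20 and 9.76 in BGJ398+FGF2. FGF2 libraries were thus lower in DMSO and higher under BGJ398, with neither change called. The change in DMSO, −0.30, lay just outside the threshold (edgeR adjusted p = 0.0503). Dhrs7 (0.51), a dehydrogenase, and Zfp433 (0.98), a zinc-finger gene, had the same pattern of signs, and Apobec1 (−0.82), a cytidine deaminase, and Arhgap18 (−0.42) the opposite one. Rps12l1 (−1.53) was at 153, 164 and 140 CPM in DMSO, 155, 216 and 154 in DMSO+FGF2, 196, 146 and 97.5 in BGJ398 and 51.4, 60.5 and 63.5 in BGJ398+FGF2. Gm8186 (−10.13), Gm2004 (−8.32) and 2310030G06Rik (−8.99) had 0 reads in all 3 BGJ398+FGF2 libraries and at most 3.56 CPM elsewhere, so these fitted values depend on the prior count and are no bound. Rps12l1, Gm8186 and Gm2004 share 100% of their 31-base sequences with other genes and Zfp433 87.1%, so their counts are uncertain. The calls of 8 of the 9 genes, all but Rps12l1, were lost without at least 1 library, at adjusted p-values up to 0.129 for Apobec1, 0.117 for Arhgap18, 0.116 for Zfp433, 0.0827 for Gm2004, 0.0672 for Gm8186, 0.0659 for Dhrs7, 0.0634 for 2310030G06Rik and 0.0594 for Cenpp.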

How the results depend on the processing

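The interaction called 532 genes, and 176 with glmTreat against 1.2-fold, 350 with length-scaled TPM, 328 to 956 without each library in turn and 1038 without the 3 libraries whose deviations correlated (BGJ398 replicate 1, DMSO+FGF2 replicate 2 and BGJ398+FGF2 replicate 2), a setting chosen after seeing the data. FGF2 in DMSO called 1680 genes, 420 with glmTreat, 1018 to 2256 without each library and 2611 without the 3. FGF2 under BGJ398 called 0, 5 with DESeq2, 6 without a filter, 0 to 1 without each library and 4 without the 3. BGJ398 without FGF2 called 41, 150 with DESeq2, 4 with glmTreat, 83 without a filter, 12 with length-scaled TPM, 9 to 104 without each library and 730 without the 3. With the replicate block, although the numbers may not mark pairs, the interaction called 428 genes and BGJ398 without FGF2 21. Of 132 called genes named in the analysis, 97 kept the call under each of the 20 alternatives other than glmTreat in which they were tested. Under these, 0 changed sign. The filter at a mean of at least 5 CPM left genes below it untested, among them Ibsp, Cd68 and Dusp4, so that alternative did not check their calls. The Spry4 interaction ranged from −0.44 to 0.19 without each library and was 0.15 without the 3. Without each library, the median FGF2 change under BGJ398 of genes higher with FGF2 in DMSO ranged from −0.00762 to 0.048, and of lower genes from −0.040 to 0.015; without the 3 the latter was 0.0015. The causes were not tested. Groups of 3 libraries limit the precision of every value.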
